A study of Mus musculus with 12 samples.

Results

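The potassium channel genes were described across 12 prefrontal cortex libraries of male C57BL/6J mice. The members were all genes whose symbol is Kcn followed by letters and a number, with at least 10 counts summed over the libraries, leaving out Kcnj13 and Kcnj8 by rule. Of 55401 genes in the count table, 92 had such a symbol, 7 of them fell below the minimum, and 83 were members. Of these, 76 passed the expression filter of the test. Kcne2, with 10 summed counts, lay just inside the minimum, and Kcne1 and Kcnv2, with 4 each, just outside it. All mice were 14 weeks old and had received an adeno-associated virus, which delivers genes to cells, on both sides of the dorsomedial prefrontal cortex 4 weeks earlier. The 3 groups held 4 libraries each. The control virus expressed green fluorescent protein (GFP) from the CAG promoter. The overexpression virus expressed GFP together with transthyretin (Ttr, a carrier of thyroid hormone and retinol) from the same promoter. The knockdown virus carried 1 short hairpin RNA against Ttr under a U6 promoter beside CAG-driven GFP. All groups therefore carried GFP, the control vector is not described as carrying a hairpin, the CAG promoter is not specific to a cell type, and the tissue held transduced and other cells alike. The control vector and the Ttr vectors had different makers, so maker and group cannot be told apart. Whether the 4 libraries of a group stem from separate animals is not stated in the labels, and p-values reflect the spread among the samples as labelled, part of it perhaps technical.

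Potassium channels let potassium flow through the membrane, and set the resting potential, the shape of the action potential and the firing rate of neurons. Their pores are built from subunits of several families, which open on depolarisation (Kv1 to Kv4, Kv7 and the EAG, ERG and ELK group), on a rise in calcium or sodium (BK, SK, Slack), or conduct near rest (the inward rectifiers and the tandem-pore K2P channels). Other members form no pore of their own and instead modify it: Kv beta, KChIP, BK beta and MinK subunits bind a channel and alter its gating or its path to the membrane.

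The pore-forming members share a short stretch of coding sequence that encodes the selectivity filter, the part of the pore that tells potassium from sodium. The longest coding sequence of each gene (GENCODE M21 transcripts, GRCm38) was searched on its own strand and in frame for 5 codons: ACN, TCN, AGC or AGT, then NTN or ACN, then GGN, then TAC, TAT, TTC or TTT, then GGN. The signature was found in 70 of 70 pore-forming members and in 0 of 13 accessory members. Across all 21526 coding genes 217 (1.01%) held it, and among coding genes that are no members 147 (0.686%) did. Of the 12 K2P members, whose subunits carry a tandem pair of pore loops, 9 held 2 copies and Kcnk1, Kcnk6 and Kcnk7 held 1. A match describes the letters only. The codons searched for were those of the potassium channel signature, with choices that some members need, so the counts in members describe and do not test. Kcnk1 and Kcnk7 match only through ACN as the 2nd codon. The windows below, of 39 bases each, show the signature in members of several pore-forming classes, among them those with the smallest p-values in the group comparisons, with the 5 codons in capitals and 12 bases on each side, written 5′ to 3′ on the coding strand (coordinates on GRCm38). The windows of Kcnd2, Kcnk1 and the 1st copy of Kcnk5 are joined across an intron, so their coordinates span it.
Kcnj2, inward rectifier (chr11:111072195-111072233, plus strand): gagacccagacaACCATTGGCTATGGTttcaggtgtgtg
Kcnj6, inward rectifier (chr16:94832765-94832803, minus strand): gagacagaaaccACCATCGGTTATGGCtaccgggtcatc
Kcnh3, ELK (chr15:99232917-99232955, plus strand): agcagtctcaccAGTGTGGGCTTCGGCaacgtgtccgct
Kcnf1, modifier Kv (chr12:17175049-17175087, minus strand): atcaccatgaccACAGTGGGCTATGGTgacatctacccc
Kcng1, modifier Kv (chr2:168262629-168262667, minus strand): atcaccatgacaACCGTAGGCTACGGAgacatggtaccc
Kcna2, Kv1 (chr3:107105212-107105250, plus strand): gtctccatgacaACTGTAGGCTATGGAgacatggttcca
Kcna1, Kv1 (chr6:126642216-126642254, minus strand): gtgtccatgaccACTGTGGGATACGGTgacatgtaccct
Kcnc2, Kv3 (chr10:112456217-112456255, plus strand): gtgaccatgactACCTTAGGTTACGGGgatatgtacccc
Kcnd2, Kv4 (chr6:21217394-21714153, plus strand): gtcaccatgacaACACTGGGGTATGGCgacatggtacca
Kcnma1, BK (chr14:23528401-23528439, minus strand): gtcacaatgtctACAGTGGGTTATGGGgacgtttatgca
Kcnu1, Slo3 (chr8:25881378-25881416, plus strand): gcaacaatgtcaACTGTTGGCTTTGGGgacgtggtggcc
Kcnk1, K2P (chr8:125995796-126025031, plus strand): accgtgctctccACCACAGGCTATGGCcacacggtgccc
Kcnk5, K2P, copy 1 (chr14:20145103-20146519, minus strand): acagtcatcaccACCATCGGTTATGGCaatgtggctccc
Kcnk5, K2P, copy 2 (chr14:20144636-20144674, minus strand): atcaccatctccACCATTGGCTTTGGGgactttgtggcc

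Levels are given as TPM, a count scaled by gene length and by library, so that genes can be compared with each other. Kcnab2, a Kv beta subunit that binds Kv1 channels, had the highest mean level in the GFP controls, 307 ± 8.14 TPM (SD, n = 4). It was followed by Kcnmb4, the BK beta subunit of neurons, at 174 ± 15.1 TPM, Kcnip3 (a KChIP, also known as DREAM) at 172 ± 11.7 TPM and Kcnj4 (the inward rectifier Kir2.3) at 171 ± 13.3 TPM. Those 3 lay closer together than their SDs, so their order is not resolved. Lower levels were those of Kcnj9 at 120 ± 8.32 TPM, a subunit of the G-protein-gated inward rectifiers, and Kcnip2 at 115 ± 18.2 TPM, another KChIP that binds Kv4 channels. Kcnh3 (an ELK channel) had 112 ± 4.06 TPM, Kcnf1, a modifier subunit without current of its own, 104 ± 5.63 TPM, and Kcnc2, a Kv3 subunit of fast-spiking neurons, 98.3 ± 9.59 TPM. From Kcnj9 to Kcnc2 neighbours again differed by less than the larger SD of the pair, except Kcnh3 and Kcnf1. Kcnk1 (a K2P channel) had 94.9 ± 7.0 TPM and Kcnab1 (Kv beta) 89.5 ± 9.99 TPM. In the controls 9 members reached 100 TPM, 52 reached 10 TPM and 70 reached 1 TPM, and the 10 highest held 45.4% of the members' summed level. In every one of the 12 libraries 68 of the 83 members were at 1 TPM or more.

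Summed by class over the control means, the inward rectifiers held 558 TPM, the Kv beta subunits 424 TPM and the KChIPs 383 TPM. Kv3 held 278 TPM, the modifier Kv subunits 256 TPM, Kv7 248 TPM, the K2P channels 233 TPM, Kv1 227 TPM and EAG, ERG and ELK 219 TPM. The BK beta subunits, at 178 TPM, were almost wholly Kcnmb4, since Kcnmb2 had 3.62 TPM and Kcnmb1 0.401 TPM. BK, Slack, Slick and Slo3 held 142 TPM, led by the BK pore gene Kcnma1 at 67.6 TPM. Kv4 held 89.8 TPM, with Kcnd2 at 49.4 TPM, and Kv2 79.6 TPM. SK and IK channels held 52.2 TPM with Kcnn2 highest at 21.6 TPM, and the MinK subunits 1.61 TPM with Kcne4 highest at 1.27 TPM. Kcna2, a Kv1 subunit of axons, led its class at 72.1 TPM. The 13 accessory members had a median control level of 27.6 TPM and the 70 pore-forming members 19.2 TPM. Accessory members made up 27.9% to 30.4% of the members' summed level in the 12 libraries.

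**Figure D1:**
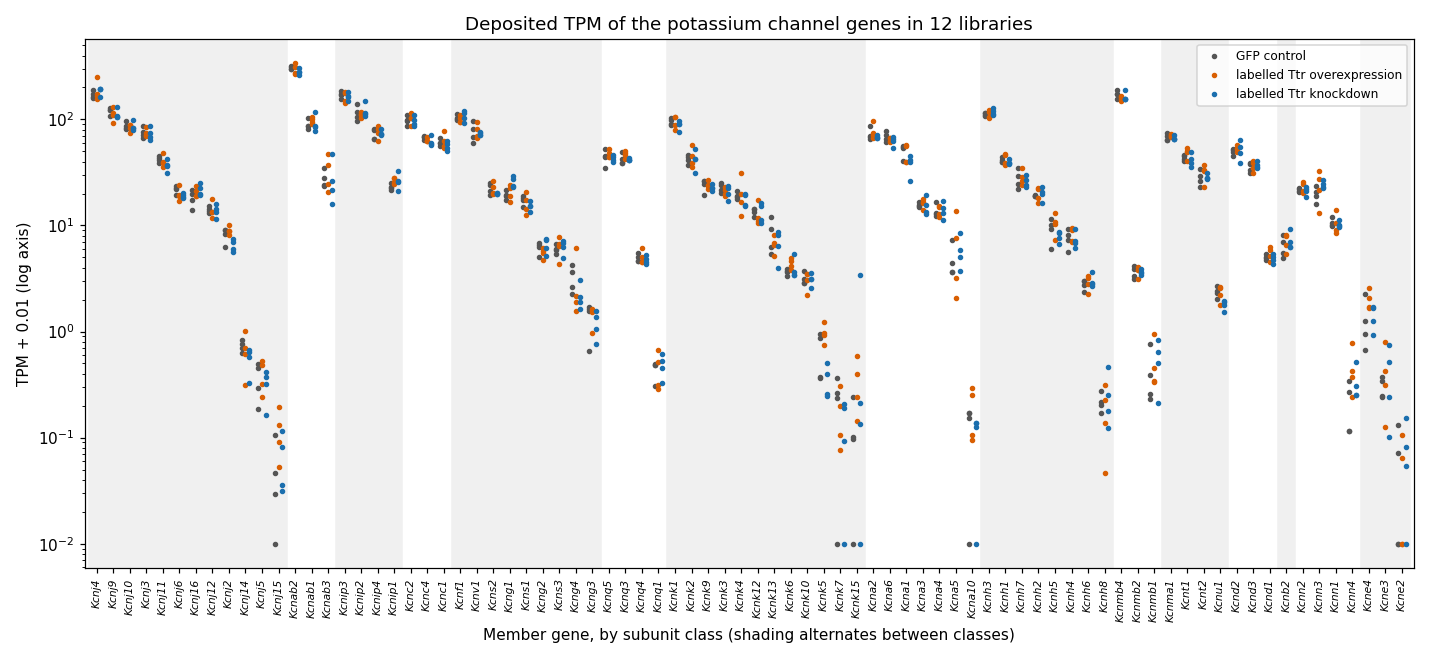
Deposited TPM plus 0.01 on a log axis for 80 of the 83 members (columns, grouped by subunit class) in the 12 libraries (points, coloured by group). Levels run from Kcnab2 at 307 TPM in the controls to members near 0, and the groups overlap for nearly all members.

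Several members lie next to each other in the genome. Within 150 kb there were 7 neighbouring pairs that together held 12 members. The Kv1 genes formed a row on chromosome 6, with Kcna5 105 kb from Kcna1 and Kcna1 61.9 kb from Kcna6, all on the minus strand, and control levels of 4.77, 51.0 and 69.2 TPM. A further Kv1 row lay on the plus strand of chromosome 3, where Kcna3 (15.6 TPM), Kcna2 (72.1 TPM) and Kcna10 (0.117 TPM) followed each other. Kcnj9 and Kcnj10, the main inward rectifier of astrocytes, lay 11.9 kb apart on chromosome 1 at 120 and 87.0 TPM, and Kcnj16 and Kcnj2 38.2 kb apart on chromosome 11 at 18.2 and 8.17 TPM. Kcnmb1 lay inside Kcnip1 on the opposite strand. In all, 41 members were overlapped by another annotated gene, 8 of them by a protein-coding one. Antisense genes overlapped many members, among them Kcnab2, Kcnmb4, Kcnj9, Kcnk1, Kcnab1, Kcnma1, Kcna6, Kcnab3, Kcnip1, Kcnj6 and Kcng2. The strand setting of the counting is not given in the sources used here, so reads of such partners may be included.

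Libraries held 19879629 to 37166146 counts, of which the members made up 0.589% to 0.685%. The targeted gene was checked first. Ttr had 20940, 8527, 7263 and 2121 counts in overexpression libraries 1 to 4, and 14, 200, 18 and 18 in control libraries 1 to 4. In libraries 1 to 4 labelled knockdown it had 3, 47, 29 and 13 counts, which overlap the controls, so the label could not be read from the RNA and the group is called "labelled knockdown" throughout. Markers of cortical excitatory neurons were detected in every library (8 of 8 genes, 2314 to 3016 CPM summed, counts scaled to library size). Markers of striatal projection neurons, cells of a region next to the dissected one, were detected too (12 of 12 genes), at a summed 298 to 1196 CPM in the control, 260 to 1509 CPM in the overexpression and 248 to 1348 CPM in the labelled knockdown libraries. In bulk tissue, fewer cells of a type and less RNA per cell cannot be told apart.

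**Figure D2:**
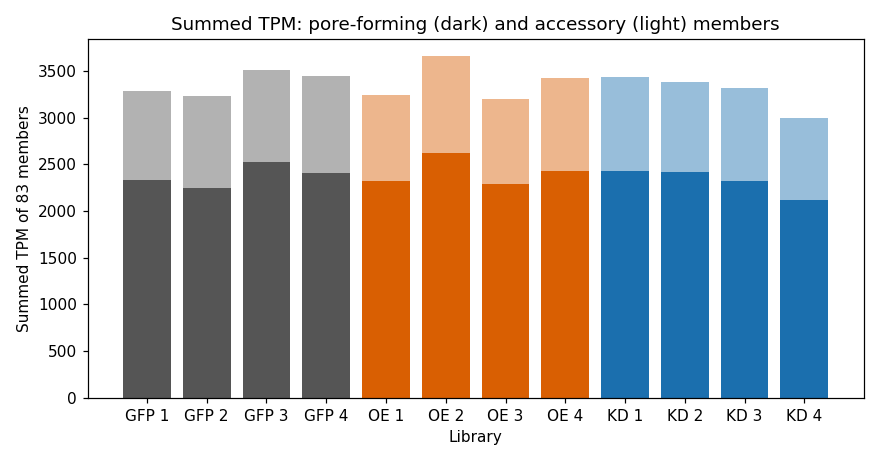
Summed TPM of the 83 members in each library (bars, coloured by group), split into pore-forming (dark) and accessory members (light). Overexpression library 2 was highest at 3661 TPM and labelled knockdown library 4 lowest at 2997 TPM.

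The members' summed level ran from 3235 to 3508 TPM in the controls, 3198 to 3661 TPM in the overexpression libraries and 2997 to 3435 TPM in those labelled knockdown. The 3 ranges overlapped. Of the 70 members with a mean of at least 1 TPM, 28 had their highest level of all 12 libraries in overexpression library 2 and 24 their lowest in labelled knockdown library 4. Control library 2 was lowest for 14. The pan-neuronal marker score (mean centred log2 CPM of 5 genes) was highest in overexpression library 2, at 0.22, and was -0.02 in labelled knockdown library 4. Its part in the members' levels was not tested.

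Ttr overexpression was first compared with the GFP control, to see whether channel transcripts differ when Ttr is high. No member passed the edgeR quasi-likelihood test with Benjamini-Hochberg adjustment over all genes (0 of 76, against 0.00547% of all 18289 genes tested, which was 1 gene). At an unadjusted p under 0.05 there were 0 of 76 members, against 6.26% of all genes (1 by DESeq2, which was Kcnmb4, and 0 by limma-voom). After adjustment DESeq2 and limma-voom also called 0 members, while of all 18289 genes they called 38 and 0. The median log2 fold change of the members was -0.0073, beside 0.0038 over all genes, and 41 of 76 members (53.9%) had a value below 0, beside 48.6% of all genes. No member's 4 overexpression libraries lay wholly above or below the 4 controls (0 of 76 each, beside 1.88% of all genes higher and 0.837% lower). The fitted fold lay within 1.2-fold either way for 70 of 76 members (92.1%, beside 85.2% of all genes). The 95% interval of the fold lay within 1.5-fold for 63 (82.9%, beside 74.4% of all genes) and within 2-fold for 71. The median standard error of a member's log2 fold change was 0.115, beside 0.104 over all genes.

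The members with the smallest p in that comparison were spread over the classes. Kcnmb4, the neuronal BK beta subunit, had 174, 191, 154 and 175 TPM in controls 1 to 4 and 162, 165, 157 and 149 TPM in the overexpression libraries, so the groups overlapped. Its log2 fold change was -0.18 ± 0.085 (SE; edgeR adjusted p = 0.799, n = 4 per group). For Kcnc4, a Kv3 subunit that inactivates quickly, the log2 fold change was -0.14 ± 0.070, and for the Kv1 subunit gene Kcna6 it was -0.16 ± 0.083. Kcnj6, a G-protein-gated inward rectifier subunit, had -0.18 ± 0.10, and Kcnk3, a K2P channel of the resting conductance, had -0.17 ± 0.10. Their edgeR adjusted p-values lay between 0.831 and 0.843. Kcne4, a MinK subunit that inhibits several Kv channels, pointed the other way at 0.56 ± 0.32 (adjusted p = 0.840), with an interval of the fold from 0.917 to 2.36. It had 1.24, 0.934, 2.26 and 0.659 TPM in the controls and 2.06, 1.65, 2.55 and 1.70 TPM in the overexpression libraries, and 3 of the 4 controls lay below every overexpression library. Beside this, 16 of 16 mural and meningeal markers had a higher fitted level under overexpression, 13 of them at an unadjusted p under 0.05, and their summed level was 232 to 296 CPM in the controls and 317 to 447 CPM in the overexpression libraries, with no marker at 0. Their part in the value of Kcne4 was not tested.

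**Figure D3:**
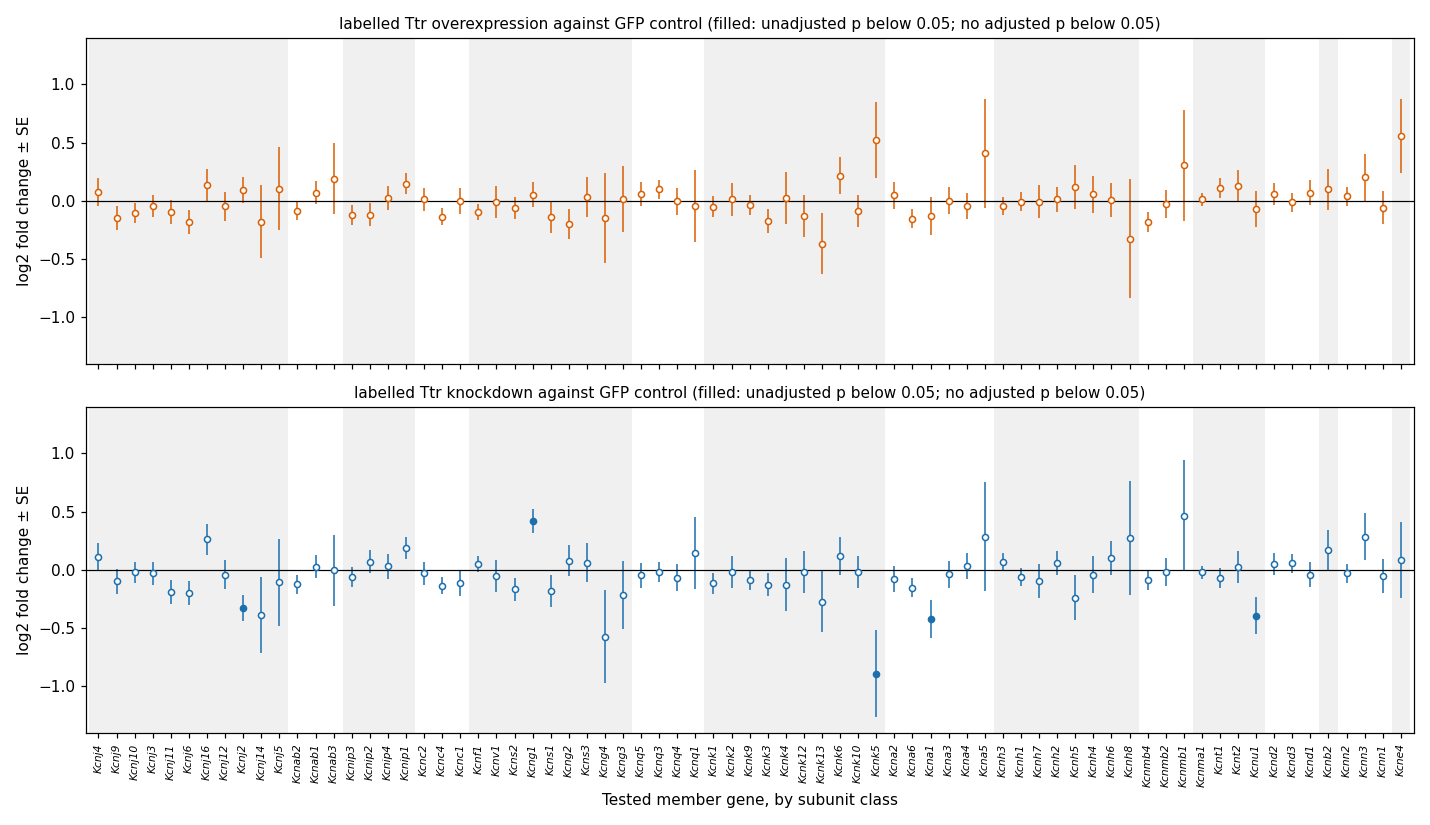
Fitted log2 fold change with its standard error for 73 of the 76 tested members (columns, by subunit class), in Ttr overexpression (top) and labelled knockdown (bottom) against GFP control. Filled points have an unadjusted edgeR p under 0.05 (0 in the top panel, 5 in the bottom one), and no point had an adjusted p under 0.05.

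The libraries labelled knockdown were compared with the GFP control next. No member passed (0 of 76, beside 0.00547% of all genes). By DESeq2 and limma-voom 0 members passed too, while of all 18289 genes they called 43 and 1. At an unadjusted p under 0.05 there were 5 of 76 members (6.58%), close to the 5.68% of all genes, of which 1 had a higher and 4 a lower fitted level. With only the 2 groups compared in the fit there were 13 of 75 (17.3%, beside 6.89% of all genes), and without a filter 10 of 83 (12%, beside 4.58%). The median log2 fold change was -0.041, beside 0.0047 over all genes, and 51 of 76 members (67.1%) had a value below 0, beside 48.2% of all genes. That count was 41 of 76 without control library 3 and 44 of 76 without labelled knockdown library 4. Leaving out any other library gave 49 (without labelled knockdown library 3) to 53 (without labelled knockdown library 1). Among the pan-neuronal markers 4 of 5 also had a value below 0, with a median of -0.095, and their part in the members' values was not tested. The 95% interval of the fold lay within 1.5-fold for 58 members (76.3%, beside 73.8% of all genes) and within 2-fold for 70.

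The smallest p among the members belonged to Kcng1, a modifier subunit that forms no current alone and joins Kv2 subunits. It had 18.8, 17.4, 19.2 and 21.6 TPM in controls 1 to 4, 24.2, 19.1, 16.8 and 22.7 TPM in the overexpression libraries and 29.5, 23.5, 27.3 and 22.9 TPM in those labelled knockdown. All 4 libraries labelled knockdown lay above all 4 controls, and Kcng1 was the 1 member of 76 for which they did (1.32%, beside 2.78% of all genes). Its log2 fold change was 0.42 ± 0.11 (fold 1.34, 95% interval 1.14 to 1.56; edgeR adjusted p = 0.518), which placed it 53rd by p among all genes. Beside Kcng1, the 6 immediate early genes, which respond to neuronal activity, all had a higher fitted level in the libraries labelled knockdown, 5 of them at an unadjusted p under 0.05. Their summed level was 307 to 357 CPM in the controls, 332 to 587 CPM in the overexpression libraries and 440 to 837 CPM in those labelled knockdown, with no gene at 0. The part of this difference in the level of Kcng1 was not tested.

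For the inward rectifier Kcnj2 (Kir2.1), the levels were 9.04, 6.30, 8.97 and 8.38 TPM in the controls, 8.20, 8.88, 8.91 and 10.1 TPM under overexpression and 5.63, 6.93, 7.41 and 6.04 TPM in the libraries labelled knockdown. Control library 2 overlapped the latter, and the other 3 controls lay above them. The log2 fold change was -0.33 ± 0.11 (edgeR adjusted p = 0.753).

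Kcna1, the Kv1 subunit of axons next to the node of Ranvier, had 40.3, 54.4, 53.6 and 55.6 TPM in the controls, 39.6, 57.5, 39.7 and 56.0 TPM under overexpression and 39.8, 45.2, 41.7 and 26.3 TPM in the libraries labelled knockdown. Control library 1 and labelled knockdown library 4 were low for their groups, and the groups overlapped. Its log2 fold change was -0.42 ± 0.16 (edgeR adjusted p = 0.834). Kcna2, which joins Kcna1 in the same channels, had means of 72.1 and 68.3 TPM in those 2 groups. All 8 oligodendrocyte markers also had a lower fitted level than in the controls, with a median of -0.47, none at an unadjusted p under 0.05, and summed 3825 to 9403 CPM in the controls and 2397 to 5489 CPM in the libraries labelled knockdown. None was at 0. By library, the score of these markers (mean centred log2 CPM) was lowest in labelled knockdown library 4, at -0.87, where Kcna1 was lowest too. In overexpression library 2, where Kcna1 was highest of all 12 libraries, the score was -0.35. The part of these markers in the value of Kcna1 was not tested.

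The K2P channel gene Kcnk5 (TASK-2) was near the detection limit, with 7 to 46 counts per library. It had 0.364, 0.854, 0.936 and 0.355 TPM in the controls, 0.736, 0.951, 1.22 and 0.925 TPM under overexpression and 0.249, 0.238, 0.391 and 0.499 TPM in the libraries labelled knockdown. Its log2 fold change against control was -0.89 ± 0.37 in the latter (95% interval of the fold 0.308 to 0.941; edgeR adjusted p = 0.847), and 0.52 ± 0.33 under overexpression (adjusted p = 0.848). For Kcnu1, the gene of the pH-gated channel Slo3 best known from sperm, the levels were 2.66, 2.38, 2.28 and 2.00 TPM in the controls and 1.51, 1.93, 1.78 and 1.89 TPM in the libraries labelled knockdown. These 4 libraries lay below all 4 controls in TPM, while in CPM, the scale on which overlap was counted, the groups overlapped. The log2 fold change of Kcnu1 was -0.39 ± 0.16 (edgeR adjusted p = 0.843).

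On the CPM scale the 1 member whose libraries labelled knockdown lay wholly below the controls was Kcnj6 (1.32%, beside 1.33% of all genes). Kcnj6 had 22.5, 19.2, 23.7 and 22.2 TPM in the controls, 19.5, 24.3, 18.8 and 17.0 TPM under overexpression and 19.4, 18.6, 20.2 and 18.2 TPM in the libraries labelled knockdown. In TPM, control library 2 overlapped the latter. The log2 fold change was -0.20 ± 0.10 (edgeR adjusted p = 0.897). Kcnip1, a KChIP of interneurons, had 0.19 ± 0.094 (adjusted p = 0.897).

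**Figure D4:**
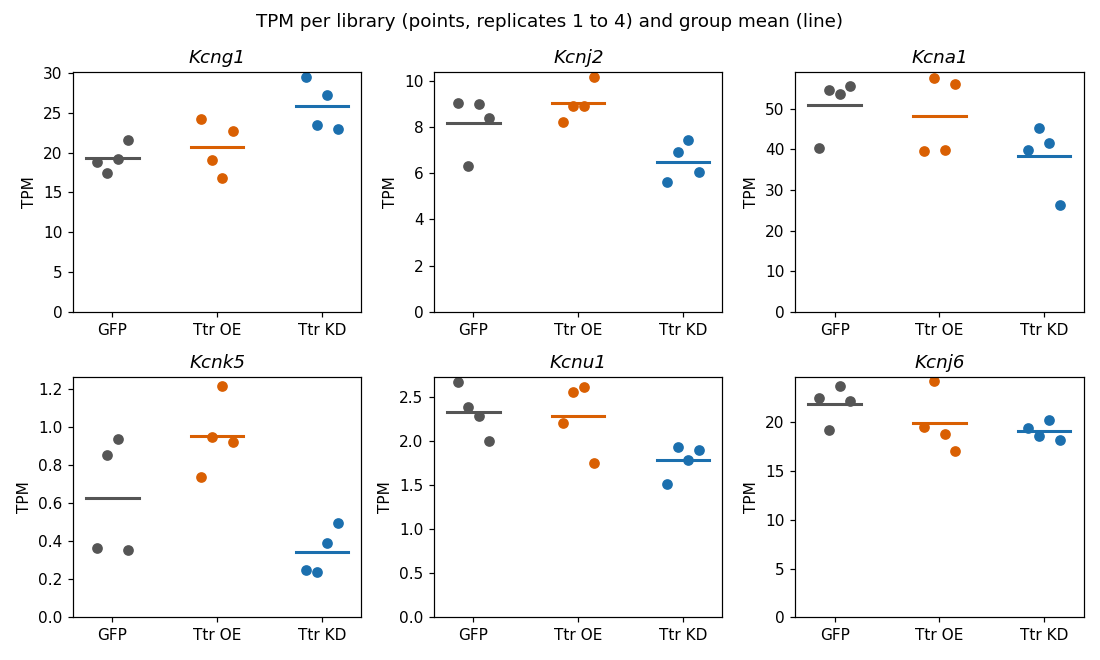
TPM of Kcng1, Kcnj2, Kcna1, Kcnk5, Kcnu1 and Kcnj6 in each library (points, replicates 1 to 4 from left to right in each group) and the group mean (line), with GFP for control, OE for overexpression and KD for labelled knockdown. For Kcng1 the KD points (22.9 to 29.5 TPM) lie above the GFP points (17.4 to 21.6 TPM), and Kcnk5 stays at or under 1.22 TPM.

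The overexpression libraries were then compared with those labelled knockdown. No member passed (0 of 76, beside 0.00547% of all genes). At an unadjusted p under 0.05 there were 3 of 76 members (3.95%, beside 5.1% of all genes), 2 with a higher level under overexpression and 1 with a lower one. Kcnk5 had a log2 fold change of 1.42 ± 0.36 (fold 2.67, 95% interval 1.56 to 4.58; edgeR adjusted p = 0.855), and Kcnj2 had 0.43 ± 0.11 (edgeR adjusted p = 0.855). Both had all 4 overexpression libraries above all 4 labelled knockdown libraries, making 2 of 76 members higher without overlap (2.63%, beside 1.23% of all genes). No member was lower without overlap (0 of 76, beside 1.14% of all genes). Kcng1 had -0.37 ± 0.11 (edgeR adjusted p = 0.855). Kcnt1, the sodium-activated channel Slack, had 0.18 ± 0.085, while Kcnf1 had -0.15 ± 0.070 and the modifier gene Kcng2 had -0.28 ± 0.13 (adjusted p = 0.967 for each). The median over the members was 0.035, beside 2e-04 over all genes, and it was -0.031 without overexpression library 2. The comparisons share libraries, so their values are set side by side and are not independent.

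In the test of any difference among the 3 groups, 0 of 76 members passed, beside 0.0109% of all genes, and 3 (3.95%, beside 5.83% of all genes) had an unadjusted p under 0.05. These were Kcng1, Kcnj2 and Kcnk5, with edgeR adjusted p-values of 0.573, 0.659 and 0.659.

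By class, the fitted levels in the libraries labelled knockdown were below control for 4 of 4 Kv3 members (median log2 fold change -0.13), 9 of 10 K2P members (-0.10) and 9 of 11 inward rectifiers (-0.099). Of all tested members 67.1% lay below 0, and of all genes 48.2%. At an unadjusted p under 0.05 were 1 of 10 K2P members (Kcnk5) and 1 of 11 inward rectifiers (Kcnj2), beside 5.68% of all genes. Kv3 scores per library ran from 0.0034 to 0.15 in the controls and from -0.18 to 0.051 in the libraries labelled knockdown. K2P scores ran from -0.0825 to 0.16 and from -0.12 to -0.062. Inward rectifier scores ran from 0.036 to 0.063 and from -0.19 to 0.017, lowest in labelled knockdown library 4. Of the 4 KChIPs 3 were above 0, with a median of 0.049. Under overexpression the same 3 pore-forming classes had 3 of 4, 6 of 10 and 7 of 11 members below 0, with medians of -0.048, -0.046 and -0.047. For BK, Slack, Slick and Slo3 all 4 members had a higher fitted level under overexpression than in the libraries labelled knockdown (median 0.14), and for KChIP all 4 had a lower one (-0.052). No class had a member that passed.

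Among members known from cells other than neurons, 6 of 8 were tested (Kcnj10, Kcnj16, Kcnk13, Kcnk6, Kcnj2 and Kcne4). Their median log2 fold change was 0.11 under overexpression, with 4 above and 2 below 0, and 0.030 in the libraries labelled knockdown, with 3 above and 3 below. Kcnj10, which clears potassium in astrocytes, had means of 87.0 TPM in the controls, 83.7 TPM under overexpression and 86.0 TPM in the libraries labelled knockdown.

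Genes of proteins that bind or anchor these channels gave a like picture. Of 25 partner genes 23 were tested and 0 passed in any of the 3 comparisons. Under overexpression 7 lay above and 16 below 0 (median -0.019), with none at an unadjusted p under 0.05. The smallest p was that of Kcnrg, a gene of a Kv assembly regulator, at -0.56 ± 0.27 (149 counts in all, edgeR adjusted p = 0.807), followed by the calmodulin gene Calm3 at -0.13. In the libraries labelled knockdown 8 lay above and 15 below 0 (median -0.031), and 1 had an unadjusted p under 0.05. This was Dpp6, which binds Kv4 channels with the KChIPs, at 0.12 ± 0.047 (edgeR adjusted p = 0.834) and Abcc8, the sulphonylurea receptor of channels that contain Kcnj11, had -0.23 ± 0.11 (adjusted p = 0.897).

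Members varied more between libraries of 1 group than most genes did. For the 70 members with a mean of at least 1 TPM, the median standard deviation of log2 CPM within groups was 0.171, beside 0.136 for the 16571 genes at that level. The largest among them was 0.778, for Kcna5, a Kv1 subunit. Kcna5 had 3.66, 4.44, 3.66 and 7.30 TPM in the controls, 7.59, 2.06, 3.16 and 13.7 TPM under overexpression and 5.02, 5.89, 8.46 and 3.67 TPM in the libraries labelled knockdown. The striatal marker score was 1.67 in overexpression library 4, 1.58 in labelled knockdown library 3 and 1.35 in control library 4. Kcna5 was highest of its group in each of these, and it was lowest of all in overexpression library 2, where the score was lowest at -1.77. The part of these markers in the level of Kcna5 was not tested.

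Kcnk13, a K2P channel known from microglia, had an SD of 0.434. Its levels were 5.34, 12.0, 6.26 and 9.21 TPM in the controls, 6.49, 5.11, 6.81 and 8.04 TPM under overexpression and 6.43, 8.73, 8.16 and 3.93 TPM in the libraries labelled knockdown. The oligodendrocyte score was highest, at 0.97, in control library 2, where Kcnk13 was highest, and lowest, at -0.87, in labelled knockdown library 4, where Kcnk13 was lowest. The microglia score was 0.45 in that last library, above the -0.063 of control library 2. Neither part in the level of Kcnk13 was tested.

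Kcnab3, a Kv beta subunit (SD 0.503), had 23.3, 24.1, 34.7 and 28.2 TPM in the controls, 20.8, 47.3, 24.4 and 37.4 TPM under overexpression and 26.5, 46.8, 21.6 and 16.0 TPM in the libraries labelled knockdown. Its highest levels were in overexpression library 2 and labelled knockdown library 2, whose interneuron scores of 0.13 and 0.16 were also the highest, and its lowest was in labelled knockdown library 4, with the lowest score of -0.14. The markers of that score did not all follow it. In overexpression library 2 Pvalb was the highest of all libraries (143.5 TPM) and Sst the lowest (563.9 TPM). The part of the interneuron markers (8 of 8 detected, 836 to 1197 CPM summed) was not tested, and Kcnab3, like many members, has an antisense gene. Kcng4, a modifier subunit (SD 0.606), had 1.56 to 4.22 TPM in 11 libraries and 6.09 TPM in overexpression library 2. Kcne4 (SD 0.496) is described above, and Kcng3, another modifier subunit (SD 0.482), ranged from 0.647 to 1.68 TPM.

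**Figure D5:**
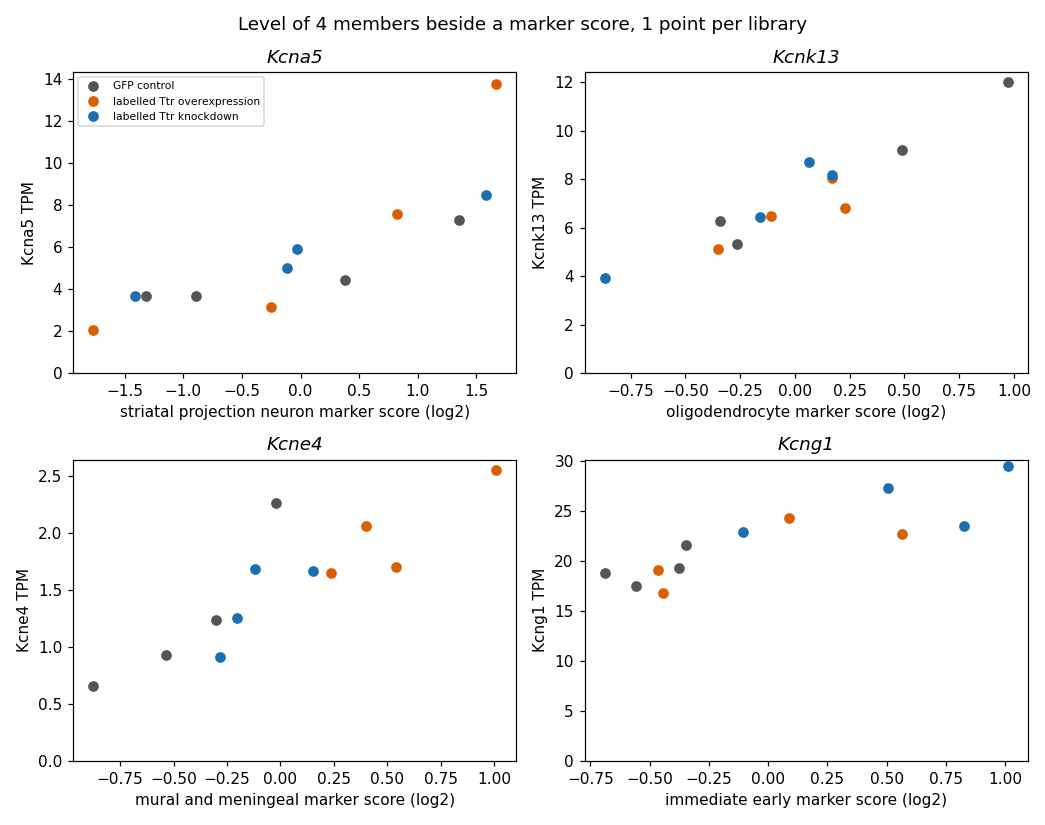
TPM of Kcna5, Kcnk13, Kcne4 and Kcng1 (vertical axes) in each of the 12 libraries (points, coloured by group) against a marker score, the mean centred log2 CPM of striatal, oligodendrocyte, mural and meningeal or immediate early genes. Kcna5 is highest, at 13.7 TPM, in the library with the highest striatal score of 1.67, and Kcnk13 is highest, at 12.0 TPM, in the library with the highest oligodendrocyte score of 0.97.

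Of the 12 libraries left out in turn, overexpression library 2 moved the count of members at an unadjusted p under 0.05 most in both comparisons with control. Without it, 13 of 76 members (17.1%) had an unadjusted p under 0.05 in overexpression against control, 12 of them with a lower level, beside 12% of all genes. The members' median was then -0.072, beside 6e-04 over all genes, and 49 of 76 lay below 0. Kcnj6 then had a log2 fold change of -0.31 (edgeR adjusted p = 0.148), Kcnmb4 -0.22 (adjusted p = 0.379) and Kcnk3 -0.24 (adjusted p = 0.388). Without the same library 11 members, in place of 5, had an unadjusted p under 0.05 in the libraries labelled knockdown against control (14.5%, beside 6.69% of all genes). No member passed in any comparison without it.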

How the data were processed

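Poly(A) RNA was sequenced from directional libraries with molecular identifiers, made from 500 ng of total RNA per the labels' protocols. The submitters' processing notes list DESeq2, featureCounts, UMI-tools, bcl2fastq 2.20.0.422 and the build GRCm38 (mm10), without saying what each did. For the aligner and the strand setting, the sources used here say nothing. The authors deposited whole-number counts per gene, TPM values and variance-stabilised values on a log2 scale. The deposited TPM equalled the counts divided by 1 length per gene and scaled, within 0.01 on the log2 scale for 99.94% of 16977 genes. Symbols were matched for 55141 of 55401 identifiers, and the other 260 held 0.00474% of the counts.

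Counts were tested with edgeR 4.0.16 (R 4.3.3; quasi-likelihood, TMM factors, the default filter by group, 3 group means over 12 libraries), with Benjamini-Hochberg adjustment over 18289 genes and a threshold of 0.05, and the steps were tested on simulated data. Standard errors and 95% intervals come from that fit, CPM used the TMM factors, and overlap between groups was read in CPM. DESeq2 1.42.0, limma 3.58.1 (voom, and its trended test on TPM and on the deposited log2 values), other filters and scaling, the replicate block and leaving out each library were alternatives. Marker scores are mean centred log2 CPM (prior count 2). Coding sequences were rebuilt from GENCODE M21 with Python 3.11.15, and figures drawn with matplotlib 3.10.9. Replicate libraries differed beyond counting error in every pair (chi-square per degree of freedom 5.37 to 28.3).

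The members and gene lists were chosen with earlier results of these data known. Named by rule were the 12 highest members and the top of each class, the 6 smallest p-values per comparison, members without overlap against control and the 6 largest spreads, with partner genes by their 2 smallest p-values. The fluorescent and short hairpin parts of the vectors were not analysed here. A few members and sequences that this rule would name are not reported here, and figures of single members leave those members out, while counts and sums include them.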

Additional observations from a re-analysis of the deposited data

Results flagged for a closer look

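Over the members' TPM values, 249 sets of 4 libraries were checked for a library far from the other 3 (Dixon's ratio of the gap to the range), and 17 had one. Chance flags about 1 in 20 such sets. Labelled knockdown library 1 stood high for Kcnmb4 (188.9 TPM, others 154.4 to 156.8), Kcnj9 (130.2, others 104.4 to 108.1) and Kcnc4 (71.83, others 57.26 to 59.72). Labelled knockdown library 4 stood low for Kcnj4 (161.4, others 191.9 to 193.9) and high for Kcnq3 (43.46, others 41.04 to 41.18) and Kcnk6 (5.385, others 3.386 to 3.605). Labelled knockdown library 2 stood high for Kcnma1 (70.7, others 65.28 to 65.82), and had 3.371 TPM of the K2P gene Kcnk15 (40 counts), beside 0 to 0.2015 in the other libraries of its group. It had 0 TPM of Kcna10, beside 0.1156 to 0.1264. Overexpression library 1 stood high for Kcnc4 (67.62, others 62.17 to 63.09), library 2 for Kcng4 (6.09, others 1.565 to 2.135), and library 4 low for Kcng3 (0.9685, others 1.532 to 1.63). Among the controls, library 1 was low for Kcna1 (40.33, others 53.6 to 55.55), library 2 low for Kcng3 (0.6466, others 1.566 to 1.684), library 3 low for Kcnq1 (0.2975, others 0.472 to 0.4799), and library 4 high for Kcna4 (16.72, others 12.2 to 12.96) with 0 TPM of Kcna10, beside 0.1443 to 0.1621. The flagged libraries, among them those of Kcna1, Kcnc4 and Kcnmb4, all entered the fit behind the group comparisons above. No explanation of the outlying values was tested.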

How the results depend on the processing

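Under 22 alternatives 0 members passed in any comparison. In the 3 comparisons of 2 groups the same fits called 0 to 43 of all genes, the most by DESeq2. All 19 named log2 fold changes kept their direction (418 of 418 values). The 19 were picked by p-value or lack of overlap in these same data. The refits also share most libraries, so this agreement says little. For Kcng1 in the libraries labelled knockdown the value ran from 0.33 to 0.47, with edgeR, DESeq2 or limma adjusted p-values from 0.0803 to 0.999. The widest ranges were 0.27 to 1.64 for Kcnk5 in overexpression against labelled knockdown, -1.12 to -0.14 for Kcnk5 and -0.46 to -0.14 for Kcnu1 in labelled knockdown against control, and 0.18 to 1.01 for Kcne4 in overexpression against control, where 1.01 is the value without control library 3. The smallest size in each of these 4 ranges came from the variance-stabilised values. Counts of members at an unadjusted p under 0.05 moved more. In overexpression against control (0 of 76) it was 1 with DESeq2's size factors (all genes 6.3%) and 1 with DESeq2 (5.87%). It was 2 without a filter (5.35%), 1 with at least 50 counts summed (6.33%) and 3 with only the 2 groups compared (4% of members, 6.06% of all genes). It was 1 on log2(TPM + 0.1) (6.97%), 1 on log2(TPM + 1) (6.96%) and 1 on the variance-stabilised values (6%). Leaving out each library in turn gave 0 to 13, while the share of all genes ran from 4% to 12%. In labelled knockdown against control (5 of 76) it was 10 without a filter (12% of members, 4.58% of all genes). It was 13 with only the 2 groups compared (17.3%, 6.89%), and 4 to 11 leaving out each library (all genes 4.14% to 7.17%). In overexpression against labelled knockdown (3 of 76) it was 5 with DESeq2 (6.58% of members, 4.26% of all genes) and 6 without a filter (7.23%, 4.31%). It was 5 on log2(TPM + 1) (6.58%, 5.42%), and 3 to 7 leaving out each library (all genes 3.53% to 6.51%). Deviations of same-numbered libraries from their group means had correlations across genes from -0.341 to 0.16. Differently numbered libraries were not set beside these, so the values do not decide whether the numbers are pairs. The main fit did not take them as pairs. With the replicate block the 3 counts were 2, 5 and 4, beside 6.19%, 5.57% and 5.05% of all genes, with 0 members passing. On the TPM scale the members' median under overexpression was 0.034 (TPM + 0.1), beside 0.051 over all genes. In the main fit it was -0.0073, so its sign changed. Kcnk5, with 7 to 46 counts, and the 7 untested members are limited by depth, and the test over all 3 groups has no fit with 2 groups only. The cause of these movements was not tested.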
